A study of Homo sapiens with 4 samples.

Results

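Chromatin accessibility was described at the 4 colony stimulating factor genes, CSF1, IL34, CSF2 and CSF3, in LM2 breast cancer cells with and without a CECR2 deletion. Members were the ATAC-seq peaks inside each gene or within 10 kb of either of its ends, which gave 36 of the 190348 peaks in the count table. CSF1 had 9 peaks, IL34 had 13, CSF2 had 4 and CSF3 had 10. One IL34 peak was too low to test, so 35 peaks were tested.

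Colony stimulating factors are secreted glycoproteins that control the survival, proliferation and maturation of myeloid cells. CSF1 (M-CSF) and IL34 bind the receptor CSF1R and sustain monocytes and macrophages. CSF2 (GM-CSF) binds a receptor made of CSF2RA and CSF2RB and acts on granulocytes, macrophages and dendritic cells, while CSF3 (G-CSF) binds CSF3R and drives the production and release of neutrophils. Carcinoma cells can secrete these factors, which act on the myeloid cells around a tumour.

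In ATAC-seq a transposase inserts sequencing adapters where DNA is open, so the number of counts in a peak reports how accessible that stretch is. LM2 is a human line derived from MDA-MB-231 breast cancer cells and selected for lung metastasis. The control group held 2 libraries with a non-targeting guide, and the sg1 group held 2 libraries with a CECR2 deletion, labelled deletion 1, made with guide sg1. CECR2 is a bromodomain protein of an ISWI chromatin remodelling complex. Cells of both groups were grown in serum-containing medium with puromycin, and each library came from 50000 cells. Both sg1 libraries carry the same guide, and the sources used here do not say whether the deleted cells were a single clone or a pool. No source says whether the 2 replicates of a group were separate cultures, so the p-values measure only the spread between these samples, which may be technical. A lower count in a bulk library can come from fewer cells with the site open or from less cutting in each cell, and these cannot be told apart. RNA and protein were not analysed here.

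The control libraries held 21002477 and 15561701 counts after a segment at the start of chromosome 1 was left out, and the sg1 libraries 43519018 and 38924086, so a given level rests on more counts in sg1. That segment took 18.0% and 17.9% of the control libraries and 25.4% of each sg1 library. Levels are counts per 1e6 counts (CPM) after TMM scaling, summarised as mean ± SD over the 2 libraries of a group. Log2 fold changes compare sg1 with control and carry a standard error. A peak was called lower or higher when edgeR's quasi-likelihood test gave a Benjamini-Hochberg adjusted p under 0.05 over all 184717 tested peaks. At CECR2 itself, 5 peaks within 10 kb of the gene were tested, of which 1 was higher in sg1, and these peaks do not check the deletion. The line was checked against marker genes by the tallest promoter peak of each. VIM, a mesenchymal marker of MDA-MB-231 cells, stood at 85.4 CPM in the control and 79.6 CPM in sg1. The 7 basal and mesenchymal markers summed to between 353 and 360 CPM in the control libraries and between 341 and 350 CPM in sg1. The largest item of that sum is a peak at the 3′ end of FOSL1, shared with CCDC85B, which went from 115 to 92.0 CPM. The sum thus does not report on promoters alone. AXL (log2 fold change 0.22), EGFR (0.35) and S100A4 (0.62) were called higher, and only the FOSL1 peak was called lower. The 6 luminal breast markers summed to between 56.1 and 58.3 CPM in the control and between 63.4 and 66.5 CPM in sg1, and 1 of them, GATA3, was higher (log2 fold change 0.76). Of 8 macrophage and blood cell markers, PTPRC and CD79A had no tested promoter peak, and the other 6 summed to between 184 and 186 CPM in the control and between 156 and 161 CPM in sg1. CD68, LAPTM5 and CD3E were called lower and none higher. CD68 and LAPTM5 stood at 48.5 and 50.3 CPM in the control, so promoter level alone does not identify the cell type. The 4 of 6 fibroblast and endothelial markers with a tested peak, which leave out PECAM1 and CDH5, summed to between 54.0 and 54.5 CPM in the control and between 72.0 and 74.5 CPM in sg1. Of these, COL1A1 and PDGFRB were called higher and none lower. The part of these differences in the results on the 4 genes was not tested.

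Accessibility fell at CSF3 over the whole stretch from before the gene to the neighbouring MED24, by up to 3.81-fold, and at single peaks inside CSF1 and IL34. The start of CSF1 did not pass the test, while the tallest CSF1 peak, past the gene, was 1.57-fold lower. CSF2 fell by less, with a log2 fold change of -0.28 summed over its peaks, against -0.52 for CSF1 and -0.99 for CSF3. Of the 35 tested peaks, 15 were lower in sg1, 3 were higher and 17 did not pass. Over all peaks within 10 kb of a protein-coding gene, 27.8% were called, 15.5% lower and 12.2% higher. Over all tested peaks of the genome 28.3% were called. The median log2 fold change of the 35 peaks was -0.25, against 0.04 over all peaks near genes. The counts were unequal between members. CSF3 had 9 of its 10 peaks lower, CSF1 had 2 lower and 2 higher of 9, CSF2 had 2 lower of 4, and IL34 had 2 lower and 1 higher of 12. Without sg1 replicate 1, 9 peaks were lower in place of 15. DESeq2, another count model, called 11 lower and 2 higher, against 9.39% lower and 4.45% higher over all peaks. The groups did not overlap in CPM at 25 of the 35 peaks, and they did not overlap at 63.7% of all tested peaks.

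**Figure D1:**
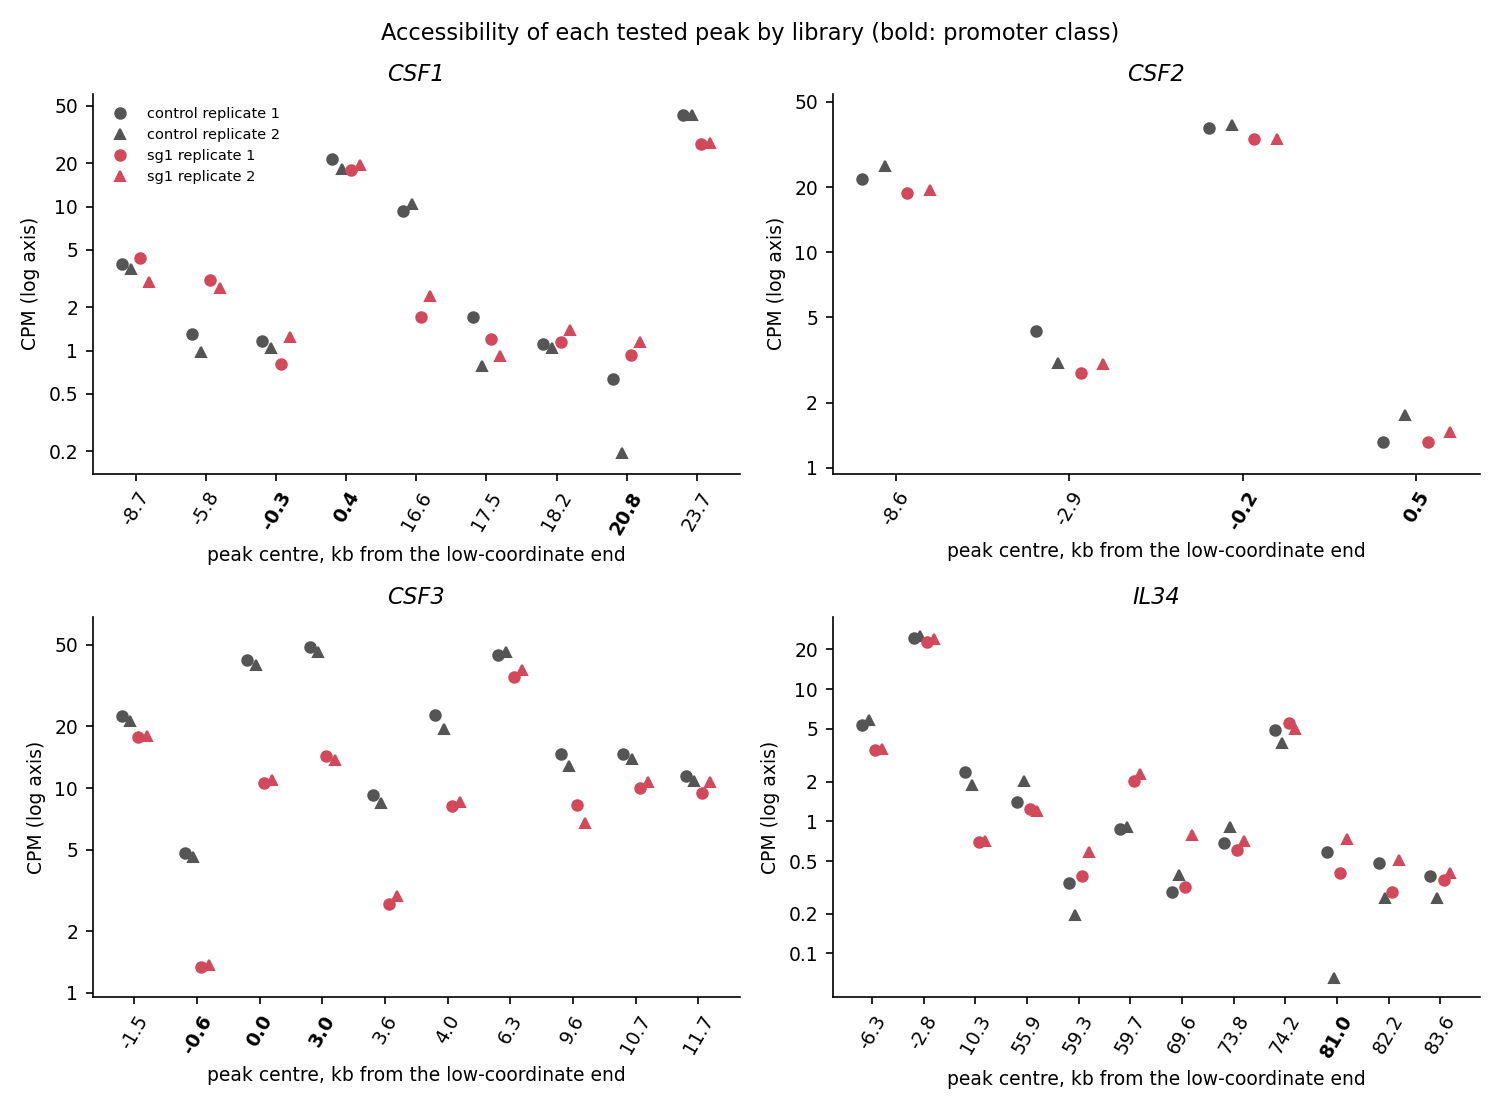
Accessibility of the 35 tested peaks in each library, with 1 panel for each gene. The vertical axis is CPM on a log scale, the horizontal axis lists the peaks by the distance of their centre from the low-coordinate end of the gene in kb, circles and triangles are replicates 1 and 2, and bold labels mark promoter-class peaks. All 10 CSF3 peaks have both sg1 libraries below both controls, and the start peak of CSF1 at 0.4 kb has overlapping groups.

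Promoter peaks were kept apart from intragenic and distal ones. A promoter peak overlapped the stretch within 1 kb of the start of the gene where the RefSeq promoter table gives a start and strand, which it does for CSF2. For CSF1, CSF3 and IL34, which have no entry in it, peaks within 1 kb of either end of the gene were taken, so this class can hold a peak at the far end. All 4 genes are transcribed towards higher coordinates. The promoter-class peaks 252 bp past CSF1, 115 bp past CSF3 and 73 bp past IL34 therefore lie at 3′ ends and not at starts. Among the 9 promoter-class peaks, 4 were lower and 1 was higher, with a median log2 fold change of -0.13. Over all promoter-class peaks, 28.2% were called, 6.49% lower and 21.8% higher, and their median was 0.17. Of the 4 lower promoter-class peaks, 3 belonged to CSF3, among them the peak past its 3′ end. The 1 higher peak was the one past the 3′ end of CSF1, so no peak at a start was higher. Among the 26 tested intragenic and distal peaks, 11 were lower and 2 higher, and the median log2 fold change was -0.28. Over all such peaks near genes, 16.9% were lower and 10.9% higher, and their median was 0.01. Without sg1 replicate 1, 6 intragenic and distal peaks were lower in place of 11, and without control replicate 2 or either sg1 replicate no promoter-class peak was higher.

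CSF1 spans chr1:109910506-109930992 (GRCh38, gene ID 1435), and its start peak barely moved while a peak near the end of the gene lost most of its signal. The peak over the start, chr1:109910333-109911489, held 21.6 and 18.4 CPM in the control replicates and 17.9 and 19.4 CPM in the sg1 replicates, and the groups overlapped. Its log2 fold change was -0.11 with a standard error of 0.10 (edgeR adjusted p = 0.432), and the interval of estimate ± 1.96 standard errors ran from -0.30 to 0.08. A small neighbour before the start, chr1:109910153-109910315, lay between 0.812 and 1.24 CPM in the 4 libraries and did not pass either.

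The intragenic peak chr1:109926879-109927349, which starts 16373 bp into CSF1, held 9.32 and 10.4 CPM in the control replicates and 1.71 and 2.38 CPM in the sg1 replicates. Both sg1 libraries were far below both controls. The means were 9.87 ± 0.778 CPM and 2.05 ± 0.470 CPM, a level 4.82-fold lower in sg1 (log2 fold change -2.27, standard error 0.19, edgeR adjusted p = 3.36e-11). The peaks next to it in the gene did not pass. The first, chr1:109927844-109928158, had means of 1.24 CPM in the control and 1.05 CPM in sg1, and the second, chr1:109928578-109928892, had 1.08 and 1.27 CPM.

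Beyond the end of CSF1, the tallest peak of the locus also fell. This distal peak, chr1:109933708-109934794, starts 2.716 kb past the gene and held 43.0 and 43.6 CPM in the control and 27.2 and 27.8 CPM in sg1. Its level was 1.57-fold lower in sg1 (log2 fold change -0.65, standard error 0.07, edgeR adjusted p = 1.44e-08), with no overlap between groups. Per kb of peak length it stood at 39.8 CPM in the control and 25.3 CPM in sg1, against 17.3 and 16.1 CPM per kb for the start peak.

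The CSF1 peaks that were called higher in sg1 were both low. The distal peak chr1:109904513-109904843, 5.663 kb before the gene and inside the non-coding RNA gene LINC01768, rose from 1.31 and 0.977 CPM in the control to 3.07 and 2.73 CPM in sg1. That is a 2.49-fold higher level (log2 fold change 1.32, standard error 0.29, edgeR adjusted p = 0.000648). A second peak in LINC01768, chr1:109901524-109902077, had means of 3.85 CPM in the control and 3.72 CPM in sg1 and did not pass. The peak chr1:109931244-109931394, 252 bp past the end of the gene, held 13 and 3 counts in the control and 41 and 45 counts in sg1. Its edgeR adjusted p was 0.0469 with a log2 fold change of 1.22, and DESeq2 gave 0.247. The log2 fold change of this low peak was 0.70 without control replicate 2 (edgeR adjusted p = 0.297), 1.39 without sg1 replicate 1 (0.0915) and 1.10 without sg1 replicate 2 (0.241).

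IL34, the other ligand of CSF1R, spans chr16:70579899-70660682 (gene ID 146433), and its gene body had 1 low peak that fell and 1 that rose. No peak of the table lies within 1 kb of its low-coordinate end. The only promoter-class peak, chr16:70660755-70660944, sits 73 bp past the high end and held 12 and 1 counts in the control and 18 and 29 counts in sg1, which overlapped. Its log2 fold change was 0.67 with a standard error of 0.59, and the value ranged from -0.05 without control replicate 2 to 3.04 without control replicate 1, where it passed (edgeR adjusted p = 0.0288).

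In the gene body of IL34, chr16:70589953-70590407 held 2.38 and 1.89 CPM in the control and 0.700 and 0.709 CPM in sg1. The groups did not overlap, and the level was 3.04-fold lower in sg1 (log2 fold change -1.61, standard error 0.33, edgeR adjusted p = 0.000337). Further along, chr16:70639471-70639813 went the other way, from 0.874 and 0.912 CPM to 2.03 and 2.28 CPM, which is 2.41-fold higher (log2 fold change 1.27, standard error 0.32, edgeR adjusted p = 0.00290). These levels rest on 49 and 29 control counts for the peak that fell and 18 and 14 for the peak that rose. The other 5 tested intragenic peaks did not pass, and the tallest of them, chr16:70653784-70654399, had means of 4.41 CPM in the control and 5.26 CPM in sg1. One further peak, chr16:70649157-70649307, held 2, 1, 11 and 18 counts and was not tested.

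Before IL34 the peaks lie in or at SF3B3, a splicing factor gene, and cannot be assigned to either gene. The tallest peak of the IL34 locus, chr16:70576420-70577807, lies over the high-coordinate end of SF3B3, its 3′ end, and stood at 24.9 ± 0.372 CPM in the control and 23.4 ± 0.910 CPM in sg1 (log2 fold change -0.09, standard error 0.08, edgeR adjusted p = 0.477). A peak inside SF3B3, chr16:70573407-70573874, fell from 5.34 and 5.80 CPM to 3.48 and 3.52 CPM (log2 fold change -0.67, standard error 0.19, edgeR adjusted p = 0.00821). DESeq2 gave this peak an adjusted p of 0.0598, and edgeR gave 0.0871 without sg1 replicate 1 and 0.0762 without sg1 replicate 2. The 2 peaks past the end of IL34, inside MTSS2, were under 1 CPM in every library and did not pass.

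CSF2 spans chr5:132073789-132076170 (gene ID 1437), and its promoter was open in all 4 libraries, at a level 1.14-fold lower in sg1. The 250 bases before its start, chr5:132073539-132073788 on the + strand of GRCh38.p14 in the RefSeq promoter table, are shown because the tallest CSF2 peak covers all 250 of them. Capitals mark a match to the CK-1 element, a cytokine promoter motif, at bases 101 to 92 before the start, and to the RUNX motif TGTGGT at bases 58 to 53 before it, both on the strand shown.
CSF2 promoter: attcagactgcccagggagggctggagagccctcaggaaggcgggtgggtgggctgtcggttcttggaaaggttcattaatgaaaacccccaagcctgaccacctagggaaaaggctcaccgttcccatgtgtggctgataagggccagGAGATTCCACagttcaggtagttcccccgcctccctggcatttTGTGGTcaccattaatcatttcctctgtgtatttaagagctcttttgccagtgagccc
Both strands were searched and the matches do not overlap. CK-1 matched in 0.581% of 22199 windows of the same length before protein-coding genes and TGTGGT in 9.36%. The NF-kB consensus, which 11.3% of windows hold, AP-1 as TGANTCA, in 5.36%, and TATAAA, in 9.0%, had no match in this window. A match is a description of the letters and not a measured binding site. Only exact matches to each motif were taken, so a site that departs from those letters, NF-kB included, would be missed.

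That promoter peak, chr5:132073059-132074114, held 37.9 and 39.0 CPM in the control replicates and 33.6 and 33.6 CPM in the sg1 replicates. Both sg1 libraries were below both controls, and the means of 38.4 ± 0.810 CPM and 33.6 ± 0.0330 CPM differed by 1.14-fold (log2 fold change -0.19, standard error 0.07, edgeR adjusted p = 0.0425). The call rests on the settings: the adjusted p was 0.172 with DESeq2, 0.129 with scaling by library size alone, 0.0929 without control replicate 2, 0.255 without sg1 replicate 1 and 0.269 without sg1 replicate 2. Over the alternatives that adjusted p ranged from 0.0400 to 0.269. A low peak just inside the gene, chr5:132074193-132074345, had means of 1.53 and 1.39 CPM and did not pass.

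Upstream of CSF2, the distal peak chr5:132064715-132065704, 8.085 kb before the gene, fell from 21.9 and 25.2 CPM to 18.9 and 19.5 CPM (log2 fold change -0.29, standard error 0.09, edgeR adjusted p = 0.0163). This peak lies nearer to IL3, which ends at chr5:132063204, than to CSF2, and cannot be assigned to either gene. It did not pass with DESeq2 (0.105), and with edgeR it did not pass without control replicate 2 (log2 fold change -0.19, adjusted p = 0.157), without sg1 replicate 1 (adjusted p = 0.168) or without sg1 replicate 2 (adjusted p = 0.0970). The peak 2.759 kb before the gene, chr5:132070775-132071030, had means of 3.69 CPM in the control and 2.88 CPM in sg1, and its interval ran from -0.82 to 0.06 on the log2 scale.

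CSF3 spans chr17:40015440-40017813 (gene ID 1440) and had the most lower peaks of the 4 genes. The peak over its start, chr17:40015096-40015843, held 42.1 and 39.9 CPM in the control replicates and 10.6 and 10.9 CPM in the sg1 replicates. Both sg1 libraries were far below both controls, with means of 41.0 ± 1.61 CPM and 10.8 ± 0.202 CPM. The level was 3.81-fold lower in sg1 (log2 fold change -1.93, standard error 0.09, edgeR adjusted p = 2.96e-18). Per kb of length this start peak went from 54.8 CPM to 14.4 CPM. In the control it was thus denser than the start peaks of CSF2, at 36.4 CPM per kb, and CSF1, at 17.3 CPM per kb, and in sg1 it was the lowest of these 3, below CSF2 at 31.8 CPM per kb and CSF1 at 16.1 CPM per kb.

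The loss at CSF3 continued past the gene. The peak chr17:40017928-40018893, which starts 115 bp past the end, fell from 48.9 and 46.0 CPM to 14.4 and 13.7 CPM, or 3.38-fold (log2 fold change -1.76, standard error 0.08, edgeR adjusted p = 5.39e-18). The small promoter-class peak before the start, chr17:40014739-40014894, fell from 4.81 and 4.62 CPM to 1.33 and 1.37 CPM (log2 fold change -1.80, standard error 0.24). Next to the far end, chr17:40018922-40019101 fell from a mean of 8.87 CPM to 2.84 CPM (log2 fold change -1.65, standard error 0.18). Within the adjoining end of MED24, a Mediator subunit gene, chr17:40019221-40019605 fell from 21.0 ± 2.31 CPM to 8.37 ± 0.226 CPM (log2 fold change -1.34, standard error 0.11). These 5 peaks form 1 run along the chromosome, and each had adjusted p-values under 0.05 in edgeR, in DESeq2 and without any 1 library.

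Around that run the losses were smaller. Before it, chr17:40013722-40014175, which overlaps the antisense RNA gene PSMD3-AS1, went from 21.9 ± 1.03 CPM to 17.9 ± 0.0910 CPM (log2 fold change -0.29, standard error 0.09, edgeR adjusted p = 0.0149). That call was lost with DESeq2 (0.104) and, in edgeR, without control replicate 1 (0.0982), sg1 replicate 1 (0.147) or sg1 replicate 2 (0.132). After it, inside MED24, chr17:40021341-40022059 was taller than the start peak in the control, at 44.5 and 46.0 CPM. It kept 34.9 and 37.6 CPM in sg1 (log2 fold change -0.32, standard error 0.07, edgeR adjusted p = 0.000743). Further into MED24, chr17:40024908-40025258 fell from 13.8 ± 1.36 CPM to 7.52 ± 1.11 CPM (log2 fold change -0.88, standard error 0.13), and chr17:40025953-40026388, which also overlaps MIR6884, fell from 14.3 to 10.4 CPM (log2 fold change -0.47, standard error 0.12). Without sg1 replicate 1 the first and the last of these 3 MED24 peaks did not pass, with edgeR adjusted p-values of 0.0653 and 0.0713. The last peak inside the 10 kb limit, chr17:40027018-40027319 at 9.205 kb, had means of 11.1 CPM in the control and 10.1 CPM in sg1 and did not pass (log2 fold change -0.15, standard error 0.13, edgeR adjusted p = 0.414).

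**Figure D2:**
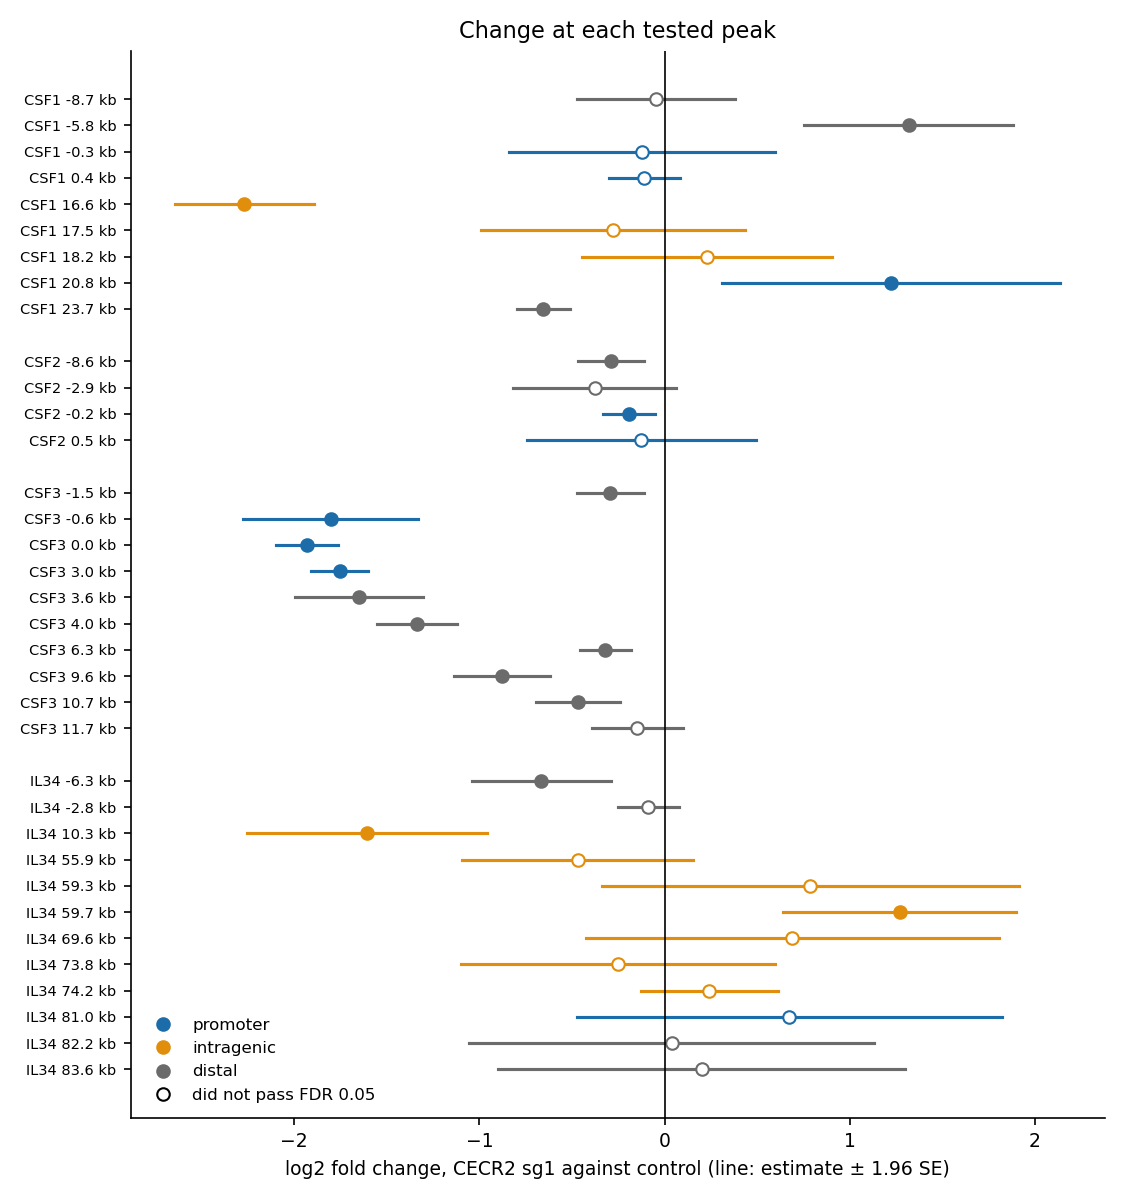
Log2 fold change of each tested peak, sg1 against control, listed by gene and by the distance of the peak's centre from the low-coordinate end in kb. Points are estimates, lines are estimate ± 1.96 standard errors, colours give the peak class and open points did not pass the test. The 5 peaks from -0.6 to 4.0 kb at CSF3 lie between -1.93 and -1.34, the CSF1 peak at 16.6 kb lies at -2.27, and the CSF1 and CSF2 start peaks lie at -0.11 and -0.19.

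Whether single peaks moved by another amount than the rest of their own locus was tested directly, by edgeR's test of each peak against all tested peaks of the same gene. Of the 35 member peaks, 16 differed from their locus, 8 downward and 8 upward. Over all 147050 pairs of a gene and a peak, 20.9% differed, 11.2% downward and 9.7% upward. CSF3 had 9 such peaks of 10, CSF1 had 4 of 9, IL34 had 3 of 12 and CSF2 had none of 4. In CSF2 the adjusted p-values ran from 0.707 to 0.855.

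At CSF3 the 5 peaks of the central run differed downward and 4 of the other 5 differed upward. The start peak fell by 0.99 more than its locus on the log2 scale (standard error 0.09, edgeR adjusted p = 5.79e-16), and the tall MED24 peak chr17:40021341-40022059 lay 0.62 above it (standard error 0.08, adjusted p = 1.57e-10). So the loss at CSF3 was uneven along its 10 kb surroundings. At CSF1 the intragenic peak lay at -1.80 relative to its locus (standard error 0.19, edgeR adjusted p = 9.82e-13), and the start peak at 0.36 (standard error 0.10, adjusted p = 0.00602). The tallest CSF1 peak, past the gene, was at -0.18 relative to its locus and did not differ from it by this test (adjusted p = 0.108). At IL34 the 2 intragenic peaks named above differed in opposite directions, at -1.51 (standard error 0.33) and 1.37 (standard error 0.32). Without sg1 replicate 1, 4 member peaks differed downward, and without sg1 replicate 2 the counts were 5 downward and 5 upward.

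Summed over all peaks within 10 kb, the CSF3 locus fell most. The sum was 239 and 227 CPM in the control replicates and 116 and 119 CPM in the sg1 replicates, with means of 233 ± 8.28 and 118 ± 1.88 CPM (log2 fold change -0.99, standard error 0.03, edgeR adjusted p = 2.74e-183 with the spread shared over all loci). Of 18552 gene loci, 1.74% had a lower log2 fold change. The CSF1 sum fell from 84.8 and 81.5 CPM to 57.6 and 59.0 CPM (log2 fold change -0.52, standard error 0.05, edgeR adjusted p = 3.47e-21), and 6.14% of loci were lower. Most of its summed difference sat in the intragenic peak and in the tall peak past the gene described above.

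The CSF2 sum fell from 66.2 and 70.3 CPM to 55.9 and 56.5 CPM (log2 fold change -0.28, standard error 0.06, edgeR adjusted p = 3.89e-06), with 16.3% of loci lower. The IL34 sum did not pass, at 42.7 ± 0.236 CPM in the control and 39.0 ± 1.66 CPM in sg1 (log2 fold change -0.13, standard error 0.07, edgeR adjusted p = 0.107). Groups did not overlap in any of the 4 sums, IL34 included, although its sum did not pass. The share of all sums without overlap was not computed, and among single tested peaks it was 63.7%. For scale, 50.6% of all locus sums were called, 26.4% lower and 24.2% higher, so a call on a sum is common in these data. The sums share peaks with neighbouring genes, namely IL3 for CSF2, MED24 for CSF3, and SF3B3 and MTSS2 for IL34. Every CSF2 peak except the low one just inside the gene, its promoter peak included, also lies within 10 kb of IL3.

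**Figure D3:**
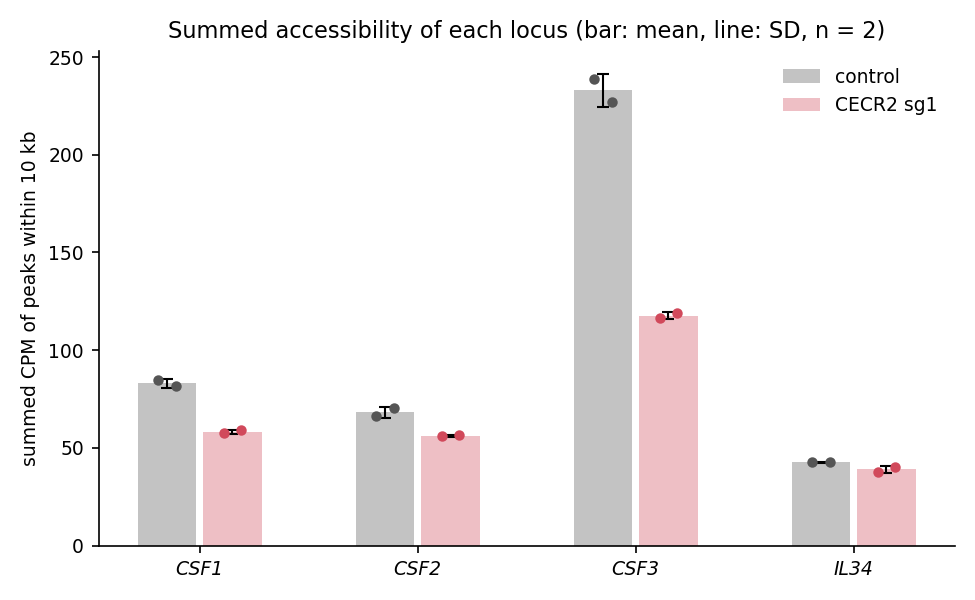
Summed accessibility of the peaks within 10 kb of each gene, in CPM from 0. Bars are group means, lines are SD with n = 2, and points are the libraries. CSF3 goes from 233 to 118 CPM and CSF1 from 83.2 to 58.3 CPM, and IL34 stays at 42.7 and 39.0 CPM.

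The surroundings were followed to 100 kb to see how far the changes reach. Between 10 and 100 kb of CSF3, 13 of 27 tested peaks were higher in sg1 and 1 was lower, with a median log2 fold change of 0.36, while the 10 peaks within 10 kb had 9 lower and a median of -1.11. At CSF2, 6 of 21 peaks between 10 and 100 kb were lower and 1 higher (median -0.23), at IL34 5 of 27 were lower and 2 higher (median 0.02), and at CSF1 3 of 29 were lower and 3 higher (median 0.34). Over all 139 tested peaks within 100 kb, the 35 member peaks included, 30 were lower and 22 higher. Of the 104 tested peaks between 10 and 100 kb, 15 were lower and 19 higher. Over all peaks, 16.8% were lower and 11.5% higher. The count of higher peaks within 100 kb was 10 with DESeq2, 15 without control replicate 2 or without sg1 replicate 1, and 10 without sg1 replicate 2. The count of lower peaks there was 20 without sg1 replicate 1.

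Neighbouring genes were read by their tallest promoter peak, of which 39.4% were called over all genes, 8.28% lower and 31.2% higher. Around CSF3, PSMD3, a proteasome subunit gene, rose from 33.5 to 39.0 CPM (log2 fold change 0.22), and MED24 rose from 11.3 to 14.5 CPM (log2 fold change 0.34). NR1D1, which encodes a nuclear receptor of the circadian clock, rose from 30.6 to 37.5 CPM (log2 fold change 0.29), and the promoter peak shared by ORMDL3 and LRRC3C rose from 8.50 to 13.1 CPM (log2 fold change 0.63). The promoter peak of THRA did not pass, and GSDMB and GSDMA had none tested. None of the promoter peaks of these CSF3 neighbours was lower in sg1.

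Near CSF1, the promoter peak of AHCYL1 rose from 24.4 to 30.7 CPM (log2 fold change 0.34, standard error 0.09). Near CSF2, ACSL6 did not pass and IL3, a haematopoietic cytokine gene beside CSF2, had no tested promoter peak. Near IL34, MTSS2 rose from 7.89 to 10.9 CPM (log2 fold change 0.45), and FCSK, VAC14 and COG4, whose promoter peak also covers the low-coordinate end of SF3B3, did not pass.

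The first peak outside the 10 kb limit of CSF2, chr5:132086191-132086945 at 10.021 kb past the gene, had means of 42.8 CPM in the control and 24.3 CPM in sg1. Larger differences followed further out, at 2 peaks named after their values were seen. The peak chr5:132094330-132095309, 18.16 kb past CSF2, had means of 117 CPM in the control and 50.3 CPM in sg1 (log2 fold change -1.22, standard error 0.06), and its neighbour chr5:132095395-132095867 had 21.8 and 7.30 CPM (log2 fold change -1.58). On the other side of CSF1, also named after its values were seen, chr1:109892286-109892868 lies in LINC01768 17.638 kb before the gene and had means of 9.91 CPM in the control and 2.92 CPM in sg1 (log2 fold change -1.76, standard error 0.17).

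**Figure D4:**
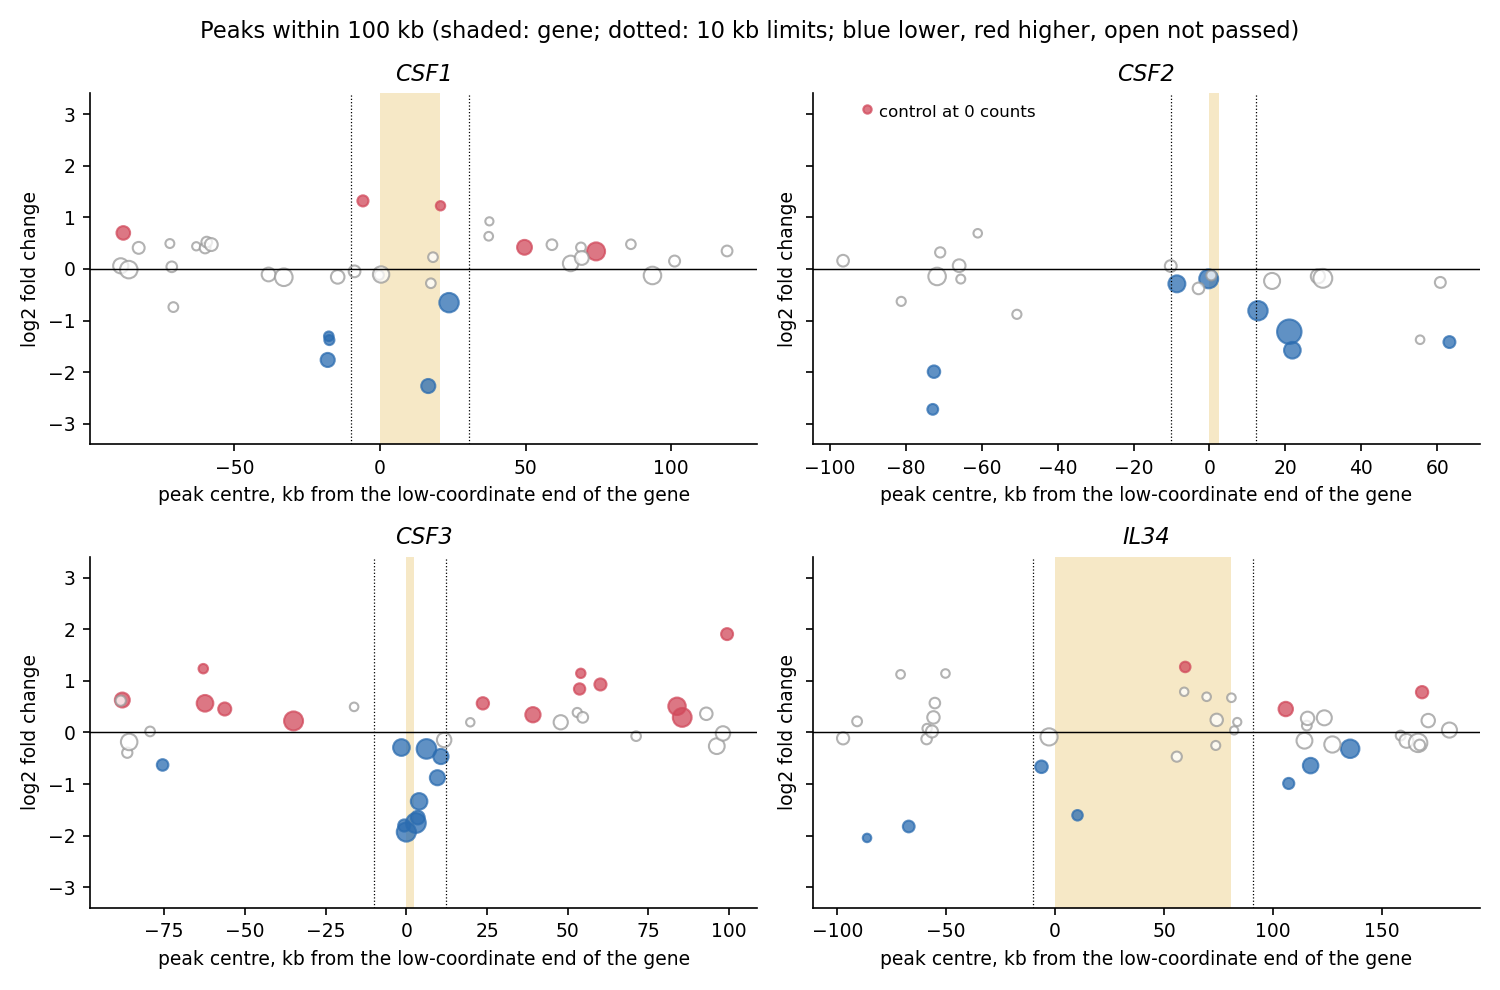
Log2 fold change of every tested peak within 100 kb of each gene against the distance of its centre from the low-coordinate end in kb. The shaded band is the gene, dotted lines are the 10 kb limits, point area grows with the mean level, blue is lower, red is higher and open did not pass. At CSF3, 9 of the 10 blue points sit inside the limits and 13 red points lie outside them, and at CSF2 the deepest losses past the gene lie outside the limits; the labelled CSF2 point had 0 counts in both controls, so its fold has no fixed size.

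Receptors and other genes of the pathway were read by their tallest promoter peak from 4 lists of 45 genes, whose choice was made with earlier results of these data known. For 9 of the 41 tested genes, among them CSF2RB, IL5, CBL, FOSL1 and ETS1, the promoter table has no entry, and the tallest peak at either end of the gene was read. Over all genes, 31.2% of the tallest promoter peaks were higher and 8.28% lower, the shares to set beside the counts of all 4 lists. Among 6 receptor genes, 5 had a tested peak, 1 rose and none fell, with a median log2 fold change of 0.07 against 0.15 over all genes. CSF2RB, the signalling chain that the receptors for CSF2, IL3 and IL5 share, held 1.02 and 0.716 CPM in the control and 2.28 and 2.43 CPM in sg1 (log2 fold change 1.41, standard error 0.32, edgeR adjusted p = 0.000964). It stayed among the low peaks, with 21 and 11 counts in the control libraries. CSF1R, the receptor of CSF1 and IL34, stood at 25.4 ± 0.394 CPM in the control and 24.3 ± 0.613 CPM in sg1, and CSF2RA at 2.89 and 3.09 CPM; neither passed. PTPRZ1 and SDC1, further receptors of IL34, had log2 fold changes of 0.16 and 0.01 that did not pass, and CSF3R had no tested promoter peak.

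Of 6 other haematopoietic growth factor genes, 5 were tested and 1 rose, with a median log2 fold change of 0.33. That one was the peak shared by IL5, a factor for eosinophils, and the DNA repair gene RAD50, which rose from 15.4 ± 0.538 CPM to 20.8 ± 0.968 CPM (log2 fold change 0.44, standard error 0.10). KITLG, the ligand of KIT, had 25.6 CPM in the control and 27.6 CPM in sg1 and did not pass.

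Among 20 genes that signal below these receptors, 18 were tested, 8 rose and 1 fell, with a median log2 fold change of 0.20. Over all genes 31.2% rose and 8.28% fell. SOCS3, a feedback inhibitor of cytokine receptors that include CSF3R, rose from 14.8 ± 1.16 CPM to 23.0 ± 1.19 CPM (log2 fold change 0.63, standard error 0.10, edgeR adjusted p = 5.92e-06). The adaptor GRB2 rose from 14.3 ± 1.11 CPM to 20.6 ± 2.80 CPM (log2 fold change 0.52), and the kinase JAK1 from 22.3 ± 0.442 CPM to 29.4 ± 2.02 CPM (log2 fold change 0.40). The other 5 that rose were TYK2, STAT5A, STAT5B, CBL and SOCS1. JAK2, the kinase bound to CSF2RB, was the 1 that fell, from 28.6 to 23.8 CPM (log2 fold change -0.27, edgeR adjusted p = 0.0132), and DESeq2 called no gene of this list lower and 6 higher.

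Among 13 regulators known to act on promoters of these ligands, 3 fell and 3 rose, with a median log2 fold change of 0.08. NFKB2, an NF-kB subunit, fell from 53.0 ± 0.346 CPM to 39.2 ± 0.571 CPM (log2 fold change -0.43, standard error 0.07, edgeR adjusted p = 5.80e-06). For FOSL1, an AP-1 subunit, the peak read lies at its low-coordinate, 3′ end and is shared with CCDC85B, so it does not report on the FOSL1 promoter; it fell from 115 to 92.0 CPM (log2 fold change -0.32), and CEBPB, a bZIP factor of myeloid genes, rose from 25.9 to 36.3 CPM (log2 fold change 0.49). The peak read for ETS1, also at its 3′ end, fell, and RELA and SP1 rose. Over the 4 lists, 13 of the 41 tested genes rose and 4 fell, against 31.2% and 8.28% over all genes. Without sg1 replicate 2 the count that rose was 7. Around the regulators, in all peaks within 10 kb and of any class, 40 of 162 were lower and 13 higher. Over all peaks near genes 15.5% were lower and 12.2% higher. ETS1 alone held 18 of the 40 lower peaks, among 29 tested near it, so this count leans on 1 locus. Around the signalling genes 32 of 196 were lower and 25 higher, around the receptors 10 of 45 were lower and 2 higher, and around the other growth factors 2 of 32 were lower and 7 higher. Those 2 lower peaks lie near IL3 and are the 2 called CSF2 peaks described above, counted again.

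**Figure D5:**
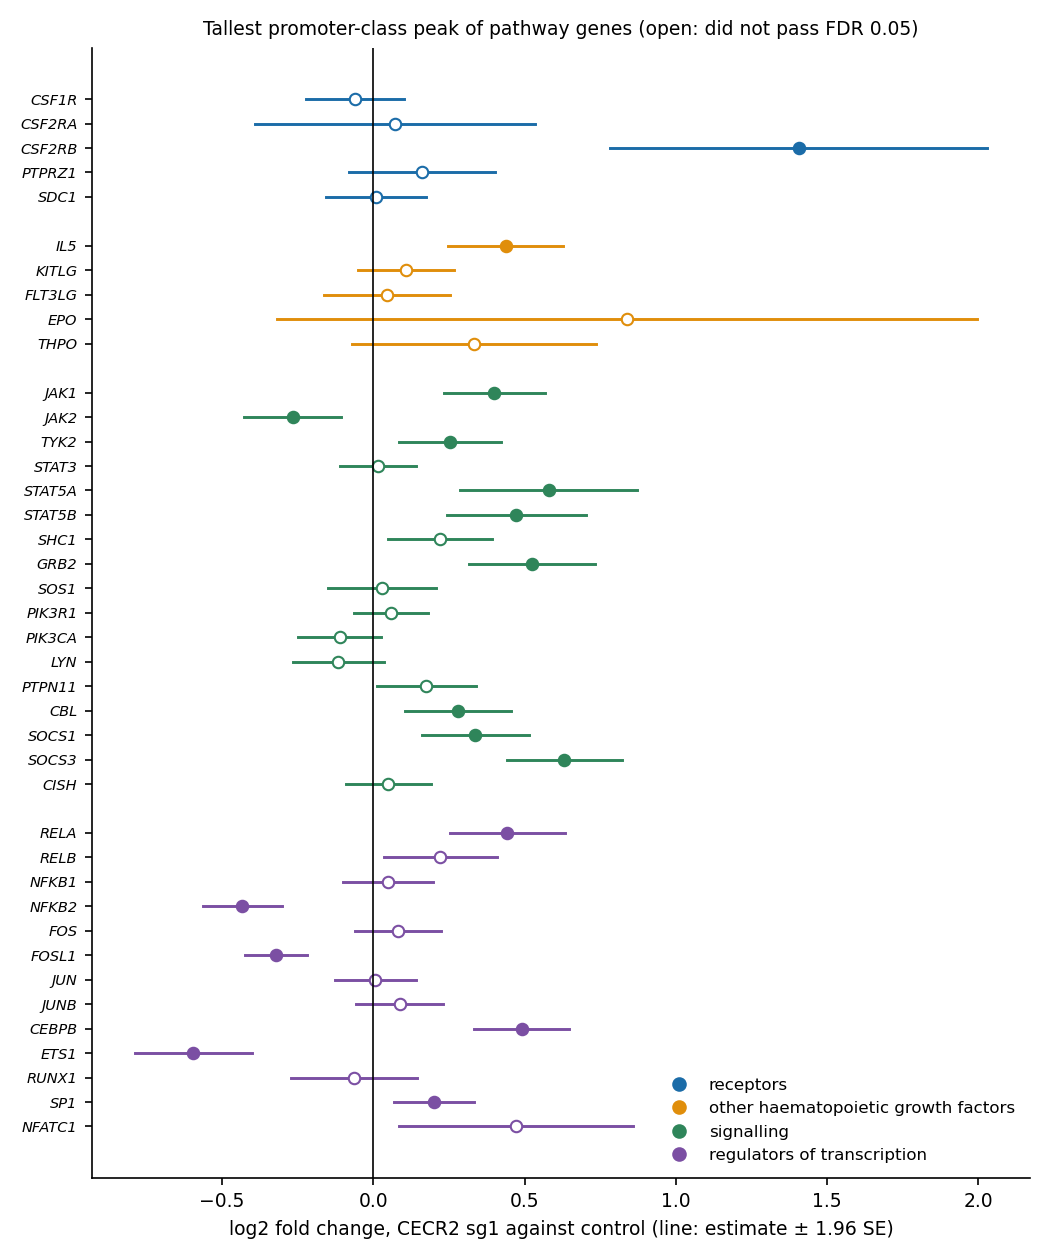
Log2 fold change of the tallest promoter-class peak of genes in the 4 lists, sg1 against control, with lines for estimate ± 1.96 standard errors and open points for genes that did not pass. CSF2RB stands at 1.41 with a wide interval, 8 signalling genes lie above 0 as filled points, and JAK2, NFKB2, FOSL1 and ETS1 are the filled points below 0.

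Genes whose tallest promoter peak was most like that of a member were found by the Euclidean distance of log2 CPM over the 4 libraries, each centred on its mean, among 14342 genes. Nearest to CSF3 were AKR1B15, read at either end of the gene, at 0.14, SLC22A23 at 0.17 and ELF3 at 0.18, with log2 fold changes of -1.91, -1.64 and -1.66. CSF1 was nearest to PEX26, ZW10 and CCP110, and CSF2 to EVA1A, DESI2 and HJURP, all within 0.03. IL34, read by its low peak past the gene, had no gene nearer than 0.42, and the nearest were FABP12, MB and HSPA12B.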

How the data were processed

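Chromatin accessibility was measured by ATAC-seq in 4 libraries of LM2 cells, 2 per group. Per the file headers, the authors deposited raw counts per peak made with featureCounts 1.6.0 on cut-site alignments, so each count is 1 transposase cut. The tools named in the submitters' processing notes are Bowtie2, CASAVA, deepTools 3.1.3, DESeq2 1.32, MACS2 2.2.4, SAMtools and Trimmomatic 0.39, with no roles. No source used here names the genome build; peaks were placed on genes of GRCh38.p14 (RefSeq).

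The 109 peaks that start within 250 kb of the start of chromosome 1 took 18.0% and 17.9% of the control libraries and 25.4% of each sg1 library. They were left out, because an earlier look at these data found coverage of about mitochondrial length there. The quasi-likelihood F test of edgeR 4.0.16 in R 4.3.3 was run on the counts, with group as the only term, after filterByExpr and TMM scaling. Benjamini-Hochberg adjustment ran over 184717 peaks, and 5522 were too low to test. TMM factors lay between 0.981 and 1.02, and the common dispersion gave a biological coefficient of variation of 8.13%. The standard error is the size of the log2 fold change divided by the square root of F. Locus sums over 18552 protein-coding genes and the test of a peak against its locus (diffSpliceDGE) each used 1 fit over all genes. Scripts were tested on simulated data with known changes. DESeq2 1.42.0, other scalings, no filter, the replicate block, each library left out, and limits of 5 and 25 kb were tried. Other steps used Python 3.11.15 with pandas 2.3.3, numpy 2.4.6 and matplotlib 3.10.9.

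The members and lists were chosen with earlier results of these data known. The text names all tested member peaks, or gives their range; protein-coding genes within 100 kb by their tallest promoter peak; per list up to 3 genes past the threshold with the smallest p, or else the gene with the smallest p; and the 3 genes most like each member. Other names complete a count, give a level, or are marked as chosen after their values were seen. Only CSF2 of the members has an entry in the promoter table.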

Additional observations from a re-analysis of the deposited data

How the results depend on the processing

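With 2 libraries per group the precision is limited at low peaks: the IL34 promoter-class peak rests on 1 to 29 counts. Of the 18 member calls, 11 held under all alternatives run (6 at CSF3, 3 at CSF1 and 2 at IL34, and none at CSF2), and 7 were lost under 1 or more. The locus sums kept direction and call throughout, at -0.54 to -0.42 for CSF1, -0.32 to -0.19 for CSF2, -1.02 to -0.90 for CSF3 and -0.17 to -0.04 for IL34 (not called, edgeR adjusted p 0.101 to 0.640).

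Counts of calls moved by over 1.5 times as follows, and the cause was not tested except that a narrower or wider limit holds fewer or more peaks. With each library left out in turn, lower member peaks numbered 9 to 14 against 15, higher promoter-class peaks 0 to 2 against 1, lower intragenic and distal peaks 6 to 10 against 11, higher pathway genes 7 to 14 against 13, higher peaks within 100 kb 10 to 19 against 22, and peaks that differ from their locus 4 to 7 downward and 5 to 9 upward against 8 and 8. With DESeq2 no promoter-class peak was higher (0 at adjusted p under 0.05, against 1 at an unadjusted edgeR p under 0.05), and 10 peaks within 100 kb were. At a limit of 5 kb, 7 intragenic and distal peaks were lower and 1 higher, and at 25 kb 17 were lower and 4 higher, with 5 member peaks higher in all.

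Directions turned only at peaks that did not pass. At CSF1, chr1:109901524-109902077 reached 0.000747 with scaling by library size alone and -0.34 to 0.22 with a library left out, chr1:109910153-109910315 reached -0.43 to 0.18, the start peak chr1:109910333-109911489 -0.21 to 0.017, and chr1:109927844-109928158 -0.68 to 0.43. At CSF2, chr5:132074193-132074345 reached -0.35 to 0.079. At IL34, chr16:70660755-70660944 reached -0.045 to 3.04, chr16:70662009-70662192 -0.36 to 0.59 and chr16:70663455-70663611 -0.024 to 0.54.

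The replicate block changed no member's call, and over all peaks it gave 30361 lower and 21215 higher against 31038 and 21261. Deviations of same-numbered libraries correlated at -0.000258 across peaks, so no deviation shared by number was seen. Whether same-numbered libraries were prepared together is not stated in the sample labels. DESeq2 called 17866 lower and 8475 higher over all peaks. Leaving out sg1 replicate 1 gave 19017 lower and 11520 higher, and leaving out sg1 replicate 2 gave 18880 and 11148.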
